A study of Homo sapiens with 3 samples.

Results

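The RNA-binding and splicing protein genes described here are the 120 protein-coding genes, of 5932 genes listed, whose symbols start with HNRNP, SRSF, SRRM, SF3, PRPF, DDX, DHX, RBM or PRRC2, together with NCL. They were chosen by name among the genes listed for both deprived libraries, with earlier results of these data known. The 3 libraries come from 95D, a human lung cancer cell line, labelled wild type, with 1 library each from glucose-deficient culture, glutamine-deficient culture and control culture, all for 48 h; values "without glucose" and "without glutamine" below are those of the 2 deprived libraries. The deprived media held 10% dialyzed serum, and the sources used here do not say whether the control medium did. The protocol in the labels describes RNA captured with the long non-coding RNA DAMER on beads for all 3 libraries, while the sample titles name RNA sequencing. Whether the control library is a capture therefore cannot be told from the labels, and the conditions cannot be told apart from single libraries, since no condition was repeated. In such samples fewer cells and less RNA per cell cannot be told apart either.

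Heterogeneous nuclear ribonucleoproteins (HNRNP genes) coat nascent transcripts and often repress exons, whereas SR proteins (SRSF genes) bind exonic enhancers and favour exon inclusion. The SF3 and PRPF genes encode parts of the spliceosome, the machine that removes introns, DDX and DHX genes encode helicases that remodel RNA and its complexes, and RBM genes encode a mixed group with RNA recognition motifs. The PRRC2 genes encode large proline-rich proteins linked to translation and stress granules, and NCL encodes nucleolin, the major nucleolar RNA-binding protein. Transcripts for these proteins are abundant in dividing cells, and many of the genes have processed pseudogenes that are nearly identical to their messenger RNA.

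The deposited values correspond to 18775817 fragments without glucose, 18301611 without glutamine and 3781862 in the control library. ATF4, a stress-response transcription factor, held with its pseudogenes 99.9% of each deprived library, against 0.0253% of the control library. Here and below, regions listed under the gene RNF157 are counted with ATF4 and its pseudogenes. All other listed and unlisted sequence made up 12936 fragments of the glucose-deficient library and 14450 of the glutamine-deficient library. The values are in RPM (reads scaled to the size of the library), summed over the regions listed for a gene. A region without a fragment carries a deposited value of 0.0266 RPM in the glucose-deficient library and 0.0273 RPM in the glutamine-deficient library, so a gene with no fragment still has an RPM that grows with its number of regions. Fragments were therefore worked back from the values; in the control library they can end in 0.5. Except for PRRC2A and DHX34, every glutamine-deficient RPM given below for a member is this offset alone. Intervals below are exact 95% intervals that cover counting error only. For bounds, 0 fragments were taken to allow up to 3, which is 0.160 RPM without glucose, 0.164 RPM without glutamine and 0.793 RPM in the control library. This set floor gives larger folds than the exact interval would: for SRRM2 without glutamine, at least 3606-fold against at least 2930-fold. Of the marker genes for epithelial, mesenchymal, leukocyte and neuronal cells, 1 of 6, 1 of 3, 1 of 5 and 1 of 3 were listed, and no fibroblast, endothelial or erythroid marker was listed. Those listed were KRT8 at 6.48, VIM at 77.7, CSF1R at 10.3 and NCAM1 at 16.8 control RPM, so of the keratins, EPCAM and CDH1 that mark epithelial cells KRT8 alone was listed.

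The RNA-binding and splicing genes were almost without fragments in both deprived libraries and well covered in the control library. They held 0.000383% of the glucose-deficient library (0.000300 to 0.000483), 1.09e-05% of the glutamine-deficient library (1.32e-06 to 3.95e-05) and 0.939% of the control library (0.929 to 0.949), all by fragments. Every one of the 120 was lower by at least 2-fold in the glucose-deficient library on log2(RPM + 1), a call made for 99.9% of all listed genes (0.118% were higher), and every one was lower in the glutamine-deficient library, where the call was again made for 99.9% (0.0675% higher). With ATF4 and its pseudogenes taken out of the totals, 91 members were lower, 12 higher and 17 within 2-fold in the glucose-deficient library, and 119 were lower and 1 higher in the glutamine-deficient library. Among all listed genes 92.0% were then lower and 4.23% higher without glucose, and 99.4% were lower and 0.388% higher without glutamine. On that scale 1 fragment is worth 77.3 RPM in the glucose-deficient library and 69.2 RPM in the glutamine-deficient library, so a single fragment places a sparsely covered gene on the higher side. The 12 higher members were not all of this kind: HNRNPUL1 had 5 glucose-deficient fragments, and PRPF19 and HNRNPA1L3 had 3 each. On log2(RPM + 1) of the deposited values, the median difference of the members was -5.10 for glucose-deficient against control and -5.15 for glutamine-deficient against control, beside -3.92 and -3.93 over all genes. No member exceeded 0.879 RPM without glucose or 0.628 RPM without glutamine, so with 1 RPM added these medians mainly follow the control level. They do not show a stronger fall of the members, and the same limit holds for the medians on this scale below. Since nearly every listed gene was called, the count says nothing particular about these genes. The list itself favours control signal: each of the 507 distinct regions of the members held at least 13.5 control fragments, and 92 of 12289 regions in the block shared with the glucose-deficient library held fewer. The sources used here do not give how the regions were called and chosen.

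**Figure D1:**
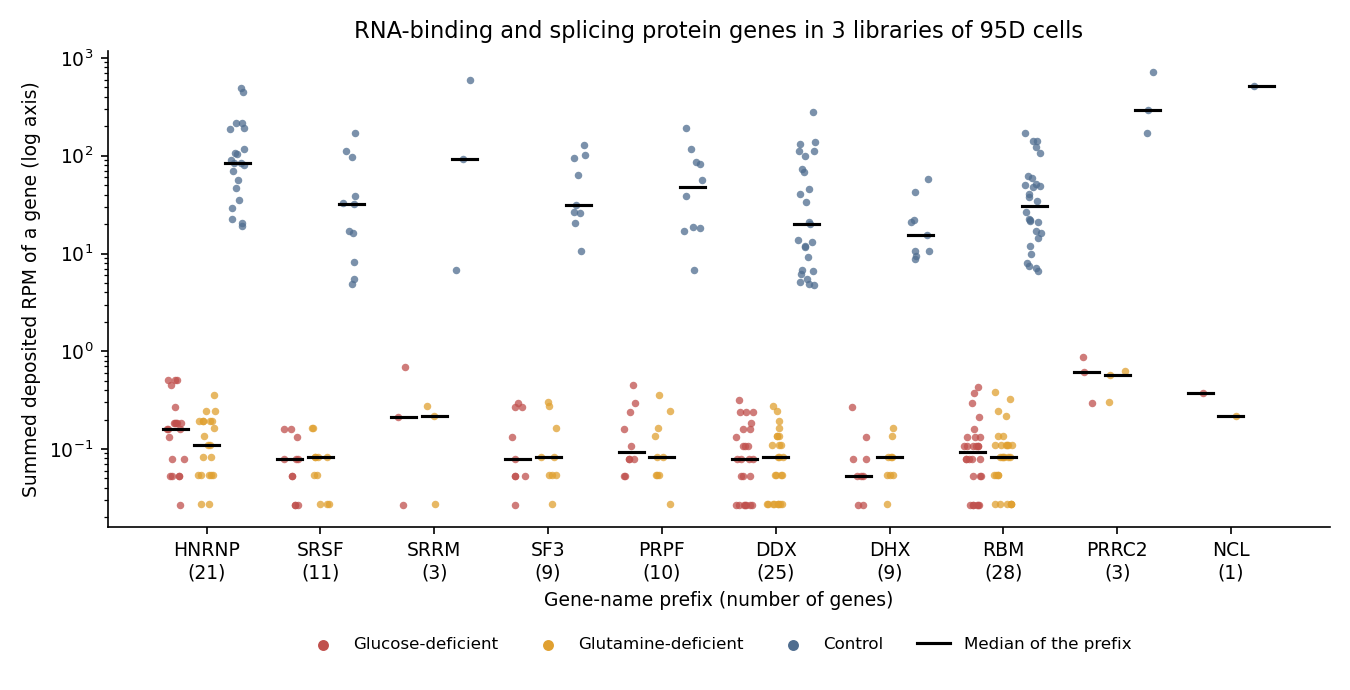
Summed deposited RPM of each gene (vertical, log axis) by gene-name prefix, with the glucose-deficient library on the left of each prefix, the glutamine-deficient library in the middle and the control library on the right. Each point is 1 gene and each bar the median; no gene exceeded 0.879 RPM in the glucose-deficient library or 0.628 RPM in the glutamine-deficient library, and none was under 4.76 RPM in the control library.

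Within the control library the members were spread widely. Summed control values ran from 4.76 to 712 RPM with a median of 38.5 RPM, against a median of 15.5 RPM over the 4393 other protein-coding genes. Levels between genes are better compared per length, and per kilobase of annotated exon the medians were 6.97 RPM for the members and 3.13 RPM for 4389 other protein-coding genes with a length. There were 30 members at 100 control RPM or more and 20 under 10. The 5 highest held 28.8% of the members' control signal. Members had between 1 and 23 listed regions, with a median of 3 against 2 for the other protein-coding genes. The number of regions and the summed control level went together across the 120 genes (Spearman's rho 0.85, Pearson's r 0.86 on log2 values), a level being the sum over these regions in 1 library. Exon length was less closely related to the level (rho 0.39, r 0.36).

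PRRC2C, whose protein is found in stress granules, had the highest summed level. The gene lies at chr1:171485551-171593511 on the plus strand (hg38) with 35 merged exon blocks. Its RPM was 0.879 without glucose, 0.628 without glutamine and 712 in the control library, from 5, 0 and 2682.5 fragments in the same order. The 23 regions of PRRC2C, more than for any other member, ranged from 4.63 to 216 control RPM, and the highest held 30.4% of the gene's control signal. The 5 glucose-deficient fragments fell in 3 of these regions, 3 of them in the third highest region, at 102 control RPM, and none in the highest. PRRC2B had 0.612 RPM without glucose, 0.574 RPM without glutamine and 295 RPM in the control library, from 1, 0 and 1106 fragments in the same order. PRRC2A, an m6A reader, had 0.293 RPM without glucose, 0.301 RPM without glutamine and 170 RPM in the control library, and was the only member with a fragment in each deprived library, 1 in either. Both fragments lay in the same region, which is also listed under another gene. The 3 PRRC2 genes together gave 12.5% of the members' control fragments.

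SRRM2, a scaffold protein of nuclear speckles, had the most fragments of any member in the glucose-deficient library. The gene lies at chr16:2752329-2772538 on the plus strand. Its RPM was 0.692 without glucose, 0.273 without glutamine and 592 in the control library, from 8, 0 and 2235.5 fragments in the same order. Scaled to library totals, SRRM2 was 1387-fold lower in the glucose-deficient library than in control (703 to 3217), and at least 3606-fold lower in the glutamine-deficient library. Fragments of SRRM2 in the glucose-deficient library fell in 5 of its 10 regions, with 3 in the region that was highest in control, at 221 RPM. SRRM1, a coactivator that bridges enhancer-bound SR proteins, had 0 fragments in either deprived library and 342.5 in control, a level of 91.6 RPM there. SRRM5 had 1 region, shared with another gene, at 6.74 control RPM.

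NCL had the highest level per kilobase, 74.3 RPM in control. It lies at chr2:231453531-231483641 on the minus strand. Its summed RPM was 0.373 without glucose, 0.219 without glutamine and 515 in the control library, from 3, 0 and 1943.5 fragments in the same order. The 8 regions ran from 21.9 to 179 control RPM, and the 3 glucose-deficient fragments fell in the regions at 105 and 41.6 RPM. Next per kilobase came DDX21, a nucleolar helicase of ribosomal RNA processing, at 55.8 RPM, PRRC2C at 50.3, HNRNPA2B1 at 48.1 and HNRNPH2 at 47.5. These values come from 1 library, so whether neighbours in the order differ beyond replicate spread was not tested.

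The HNRNP genes were the largest contributors in control and in the glucose-deficient library. The 21 genes held 27 of the 72 member fragments of the glucose-deficient library, 0 of the 2 in the glutamine-deficient library, and 9913 control fragments, 27.9% of the members' total. Their median control level was 83.6 RPM, and all 21 were lower in each deprived library, with medians of -6.16 (glucose-deficient) and -6.15 (glutamine-deficient) on log2(RPM + 1), whereas on totals free of ATF4 and its pseudogenes 13 were lower and 3 higher without glucose (92.0% and 4.23% of all genes), and 21 lower without glutamine (99.4% of all genes). HNRNPU, which binds chromatin and nascent RNA, lies at chr1:244840638-244864560 on the minus strand. It had 0.506 RPM without glucose, 0.246 RPM without glutamine and 493 RPM in the control library, and its highest region alone had 222 control RPM. HNRNPA2B1, a core particle protein that also sorts microRNAs, lies at chr7:26173057-26201529 on the minus strand. Its RPM was 0.453 without glucose, 0.191 without glutamine and 446 in the control library. Each of HNRNPU and HNRNPA2B1 had 5 glucose-deficient fragments. On library totals they were 1845-fold lower (789 to 5689) and 1670-fold lower (714 to 5150) than in control. Both were within 2-fold of control once ATF4 and its pseudogenes left the totals.

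HNRNPUL1 had as many fragments in the glucose-deficient library, 5, from 706 in control, and they lay in 5 different regions. HNRNPC, which binds uridine tracts and measures transcript length, had 0.506 RPM without glucose, 0.355 RPM without glutamine and 217 RPM in the control library. Its 13 regions ran from 8.59 to 35.4 control RPM, with 16.4% of the control signal in the highest. All 3 glucose-deficient fragments of HNRNPC fell in 1 region. The proteins that bind guanine-rich tracts, HNRNPH1, HNRNPH2, HNRNPH3 and HNRNPF, had 1 fragment together without glucose, 0 without glutamine and 2152.5 in control. HNRNPH3 had 0 fragments without glucose, 0 without glutamine and 823.5 in control (219 RPM), the most of any member without a glucose-deficient fragment, and was at least 1363-fold lower without glucose than in control. HNRNPH2 carried 92.0% of its 106 control RPM in 1 of 2 regions. HNRNPUL2 and the readthrough gene HNRNPUL2-BSCL2 are listed with the same 7 regions and count as 2 members with 1 set of values, 83.6 control RPM each.

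SR protein genes were present at a median of 32.1 control RPM over 11 genes. They had 1 fragment without glucose, 0 without glutamine and 2015 in control. The single fragment was listed under SRSF1, the prototype SR protein, with 0.133 RPM without glucose, 0.0820 RPM without glutamine and 113 RPM in the control library. Every region of SRSF1, and of SRSF2 and SRSF6 below, is also listed under another gene. SRSF11 had 0 fragments without glucose, 0 without glutamine and 643 in control (171 RPM), and so was at least 1064-fold lower without glucose and at least 1037-fold lower without glutamine. Likewise SRSF4, SRSF5 and SRSF2 had 0 fragments in either deprived library, and their control levels were 97.0, 38.7 and 33.2 RPM. SRSF12 and SRSF6 closed the list at 4.89 and 5.42 control RPM. Per 1000 control fragments the SR genes kept 0.496 in the glucose-deficient library (0.0126 to 2.77), an interval that overlaps that of the HNRNP genes, 2.72 (1.79 to 3.96).

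Among spliceosome components, the SF3 genes encode the U2 particle proteins that recognise the branch point. The SF3A proteins, SF3A1, SF3A2 and SF3A3, had 3 fragments in the glucose-deficient library and 699.5 in control, and the 6 listed SF3B genes had 0 and 1184. SF3B3 was the highest of them at 128 control RPM over 11 regions, followed by SF3A2 at 102 RPM, SF3B1, the branch-point clamp often mutated in blood cancers, at 94.3 RPM and SF3A1 at 63.6 RPM. SF3A1 had 0.266 RPM in the glucose-deficient library (2 fragments) and 0.164 RPM in the glutamine-deficient library (0 fragments). SF3A2 held 78.8% of its control signal in 1 of 3 regions. Of the PRPF genes, PRPF8, the core of the catalytic centre, had 0.453 RPM without glucose, 0.355 RPM without glutamine and 194 RPM in the control library. Its 13 regions ran from 5.16 to 27.5 control RPM. The highest held 14.2% of the control signal, the lowest such share of any member, though this share also falls with the number of regions. PRPF19, a ubiquitin ligase of the spliceosome, had 3 glucose-deficient fragments from 209.5 in control, all in the region that was highest in control. PRPF38B and the kinase gene PRPF4B were concentrated, with 75.7% and 83.7% of their control signal in 1 region.

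The helicase genes named DDX had 8 fragments without glucose, 0 without glutamine and 4785.5 in control over 25 genes, whose control levels ranged from 4.76 RPM for DDX23 to 280 RPM for DDX21. DDX21 had 0.320 RPM without glucose, 0.273 RPM without glutamine and 280 RPM in the control library. DDX39B, an export and spliceosome assembly factor, had 140 control RPM, all in regions also listed under another gene. DDX17, a splicing coregulator, had 132 control RPM, DDX46, which acts at the branch point, 111 and DDX3X, a translation initiation helicase, 111. DDX11, which carries the DDX name but unwinds DNA, had 2 fragments without glucose, 0 without glutamine and 171.5 in control. DDX41 had 1 fragment in the glucose-deficient library from 18 in control, 89.4-fold lower on library totals with an interval from 14.1 to 3723. On totals free of ATF4 and its pseudogenes DDX41 was higher than control, 1 fragment being worth 77.3 RPM there. DDX59 and DDX47 were likewise near the lower end at 5.16 and 5.42 control RPM.

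The 9 DHX genes had the lowest median control level per kilobase of the 10 name groups, 2.60 RPM. DHX9, which unwinds RNA and RNA-DNA hybrids, had 0.133 RPM without glucose, 0.137 RPM without glutamine and 57.6 RPM in the control library. The values in both deprived libraries are the sum of 5 empty regions. DHX33 had 2 glucose-deficient fragments from 157 in control. DHX15, DHX16 and DHX38, which drive spliceosome remodelling and disassembly, had 0 fragments in the glucose-deficient library and 178 in control. DHX34, a factor of nonsense-mediated decay named after its values were seen, had 0 fragments without glucose, 1 without glutamine and 32.5 in control, in 1 region shared with another gene.

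The 28 RBM genes had 6 fragments without glucose, 0 without glutamine and 4829 in control. RBM26, a component of nuclear RNA decay, had 0 fragments in either deprived library and the highest control level of the group, 171 RPM over 14 regions. RBM25, a splicing regulator that binds the U1 particle, and RBM33 had 141 RPM each, RBMX 122 RPM and RBM39, the target of aryl sulfonamide degraders, 107 RPM. RBM33 had 0.426 RPM without glucose (2 fragments), 0.328 RPM without glutamine (0 fragments) and 526.5 control fragments. RBM14, RBM4 and the readthrough gene RBM14-RBM4 share their regions, so these 3 members are not independent.

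Region by region, the glucose-deficient fragments were scattered. The 72 member fragments fell in 52 of 507 regions (10.3%), 38 of them with 1 fragment, and no region had more than 3. A fragment was found in 418 of 10322 regions of the other protein-coding genes (4.05%), genes whose median control level was lower. The highest region of a gene held 22.4% of the glucose-deficient fragments and 36.4% of the control fragments, over the members with 2 or more regions. Of the 96 such members, 29 had over 50% of their control signal in 1 region.

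**Figure D2:**
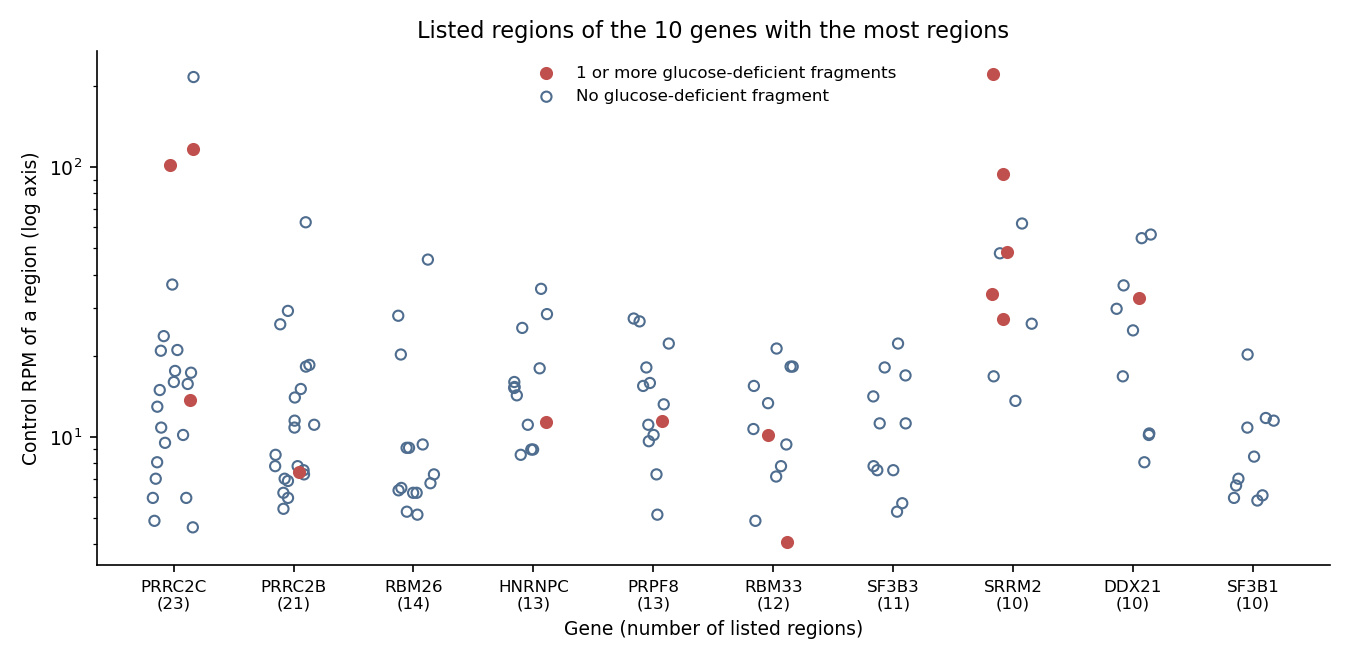
Control RPM (vertical, log axis) of every listed region of the 10 genes with the most regions, where filled points are regions with 1 or more glucose-deficient fragments and open points are regions with none. SRRM2 had fragments in 5 of 10 regions and PRRC2C in 3 of 23, and RBM26, SF3B3 and SF3B1 had none.

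The 2 deprived libraries differed from each other in how many member fragments they held. In the glucose-deficient library 34 of 120 members had a fragment, where 9.07% of all listed genes did. In the glutamine-deficient library 2 of 120 members had a fragment, where 0.776% of all listed genes did, and 85 members had none in either. The fragments numbered 72 in the glucose-deficient library and 2 in the glutamine-deficient library, a ratio of 35.1 after scaling to the totals (9.37 to 295). Over the other protein-coding genes the same ratio was 17.7 (12.4 to 25.9), and over mitochondrial genes it was 0.877 (0.651 to 1.18). The intervals of the members and the other protein-coding genes overlap, so a larger difference for the members was not detectable at this depth. No member reached 1 RPM in either deprived library, so none entered the comparison of the 2 by fold, in which 18.8% of 16 genes were higher in the glucose-deficient library.

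Members with a glucose-deficient fragment had a median control level of 108 RPM (4.89 to 712), and the 86 without one a median of 22.5 RPM (4.76 to 219). Of 18 members with 500 control fragments or more, 15 had one, and HNRNPH3, RBM26 and SRSF11 did not. The 5 members highest in control held 36.1% of the members' glucose-deficient fragments. Across the 120 genes the fragments in the glucose-deficient library and in control were related with rho 0.47 and r 0.54 on log2(fragments + 1), the points sharing 2 libraries and their depth. For the 86 members without a glucose-deficient fragment the bound ran from at least 28.96-fold to at least 1363-fold lower than control, and for the 118 without a glutamine-deficient fragment from at least 28.2-fold to at least 4327-fold.

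**Figure D3:**
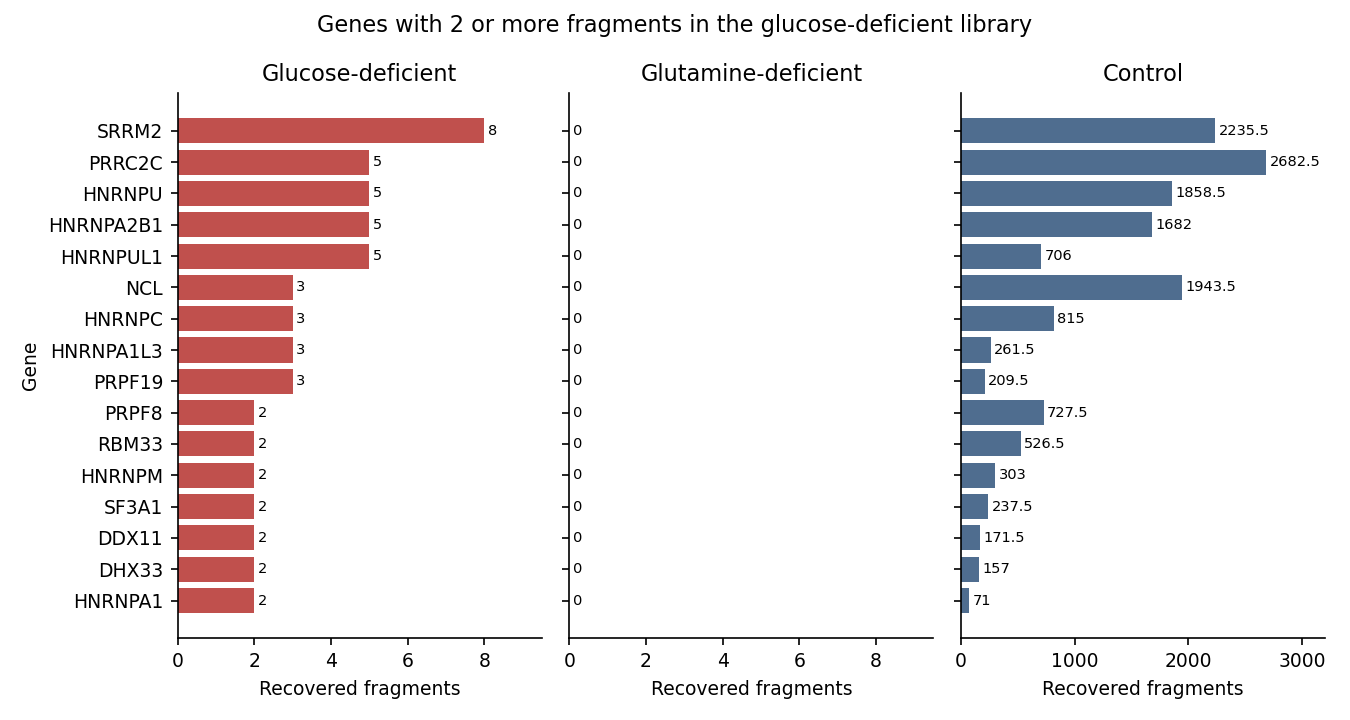
Recovered fragments (horizontal) of the 16 genes with 2 or more glucose-deficient fragments, with the glucose-deficient, glutamine-deficient and control libraries from left to right, on separate axes. Bars run up to 8 for SRRM2 in the glucose-deficient library, all are 0 in the glutamine-deficient library, and control bars run from 71 for HNRNPA1 to 2682.5 for PRRC2C.

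The members kept somewhat more of their control signal in the glucose-deficient library than other protein-coding genes did. Per 1000 control fragments the members kept 2.03 (1.59 to 2.55) in the glucose-deficient library, and the other protein-coding genes kept 1.30 (1.20 to 1.41). As a share of all that was not ATF4 or its pseudogenes, the members were 0.557% of the glucose-deficient library and 0.939% of the control library, which is 1.69-fold lower (1.34 to 2.16), where the other protein-coding genes were 2.62-fold lower (2.42 to 2.85). Neither pair of intervals overlaps, but they cover counting error within 1 library only. Within control-level classes the order was the same, and the intervals overlapped in all but the highest class. From 10 to 50 control RPM the members kept 2.30 (1.15 to 4.11) and the other protein-coding genes 1.14 (0.990 to 1.30), and from 50 to 100 RPM 1.95 (0.973 to 3.49) and 1.19 (0.992 to 1.40). At 100 RPM or more the members kept 1.92 (1.42 to 2.55) and the others 1.22 (1.06 to 1.41), with a fragment in 19 of 30 members and 104 of 245 others. In the glutamine-deficient library the members kept 0.0563 (0.00682 to 0.203) and the other protein-coding genes 0.0720 (0.0496 to 0.101), while mitochondrial genes kept 1.02 (0.832 to 1.25). By prefix the fragments kept in the glucose-deficient library ran from 0.496 for SRSF to 3.07 for SRRM, the value for SRRM coming from SRRM2 alone, and all 10 intervals overlapped that of the members as a whole. So did those of the listed genes outside the protein-coding and mitochondrial ones, 1.55 (1.39 to 1.73), of the other RNA-binding proteins described below, 1.51 (1.04 to 2.10), of the exon junction, export and decay factors, 2.42 (1.11 to 4.59), and of the snRNP and U2 factors, 0.915 (0.249 to 2.34). On log2 values scaled to totals free of ATF4 and its pseudogenes, the median difference between the glucose-deficient and control library was -1.12 for the PRRC2 genes and -1.14 for NCL, and that of the HNRNP genes was -4.55, a median that falls on genes with no glucose-deficient fragment.

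**Figure D4:**
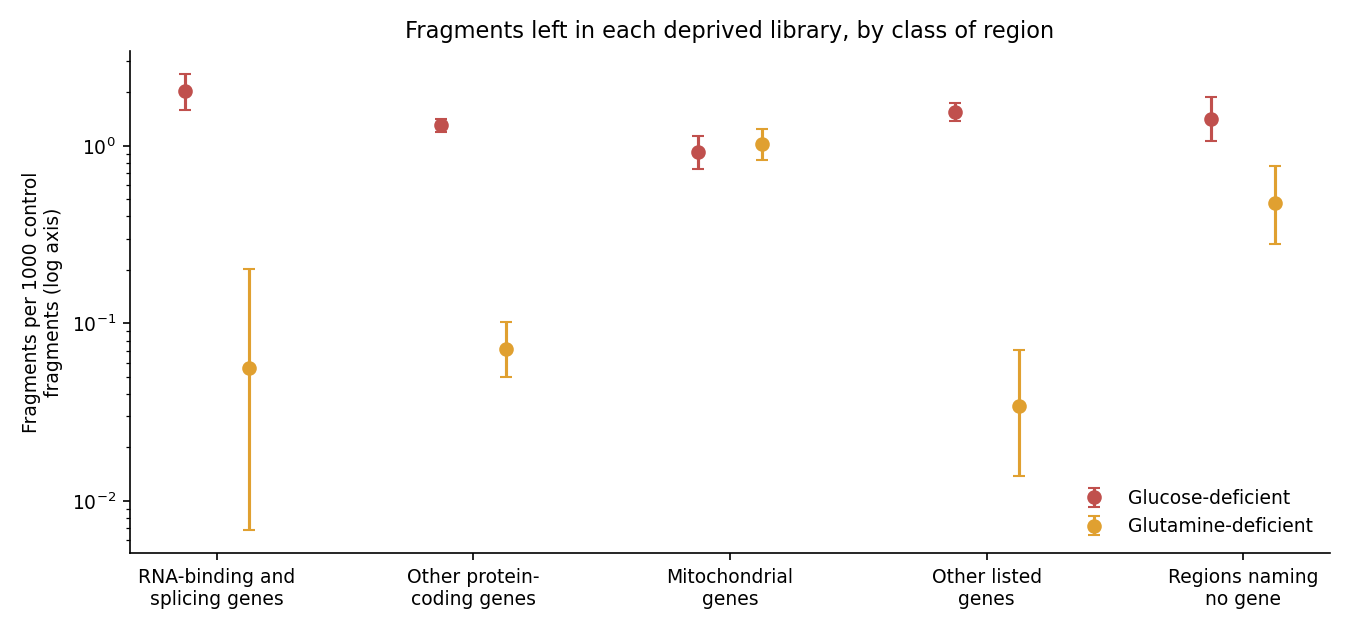
Fragments per 1000 control fragments (vertical, log axis) for 5 classes of region, with the glucose-deficient library left of the glutamine-deficient library. Points are ratios of summed fragments and bars exact 95% Poisson intervals, for counting error only; RNA-binding and splicing genes stand at 2.03 and 0.0563, mitochondrial genes at 0.921 and 1.02.

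Other genes of RNA processing were likewise lower on the deposited scale, where 99.9% of all genes were. The counts with a glucose-deficient fragment stand beside the 9.07% of all listed genes that had one. Of a list of 60 proteins of the spliceosomal particles and U2 factors, 42 were listed, all lower in both deprived libraries, with a median of -3.86 (glucose-deficient) on log2(RPM + 1), 4 with a glucose-deficient fragment and none with a glutamine-deficient one. On totals free of ATF4 and its pseudogenes 38 were lower and 2 higher without glucose, which is near the 92.0% and 4.23% of all genes. SNRNP200, the helicase that unwinds U4 from U6, had 129 control RPM, and U2AF2, which binds the polypyrimidine tract, had 128. Of 34 exon junction, export and decay factors, 25 were listed, all lower, with a median of -4.52 and 9 glucose-deficient fragments in 5 genes, and 20 were lower and 3 higher without glucose once ATF4 and its pseudogenes left the totals (92.0% and 4.23% of all genes). PNN and ACIN1, found around the exon junction complex, SMG5, a decay factor, and MTREX, the nuclear exosome helicase, had 2 of these each, and THOC2, a subunit of the export complex THO, had 0 from 417.5 in control. For a list of 98 other RNA-binding proteins 87 gene entries were found, MATR3 being entered more than once. All 87 were lower, with a median of -5.53 and 34 glucose-deficient fragments in 18 entries. On totals lacking ATF4 and its pseudogenes 69 were lower and 2 higher without glucose, beside 92.0% and 4.23% of all genes. SPEN, RRBP1, YBX1, PCBP2 and STAU1 had 2 each, and TAF15 had 0 from 872.5 in control. Of 9 kinases that phosphorylate SR proteins, 5 were listed, SRPK1 at 71.5, SRPK2 at 21.7 and CLK1 at 12.2 control RPM among them, all lower on either scale with a median of -3.64 on log2(RPM + 1), and none had a fragment in a deprived library.

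Near-identical copies make some of the values uncertain. A search of the members' GENCODE 29 transcripts against those of the other listed genes found 25 pseudogenes that matched 19 members at 90% identity or more over at least 150 bases and 50% of the pseudogene transcript. The pseudogenes had 862 control RPM in all, each between 4.50 and 174, and 8 of them stood above the gene they resemble. They had 3 fragments without glucose, 0 without glutamine and 3242 in control. The sources used here do not give how reads that match several places were counted, so the split of reads between a gene and its copy is uncertain. HNRNPCP2 had 174 control RPM beside 217 RPM for HNRNPC. HNRNPA3P6 had 95.7 RPM beside 20.5 RPM for HNRNPA3, HNRNPKP4 110 RPM beside 104 RPM for HNRNPK, HNRNPLP2 40.3 RPM beside 22.6 RPM for HNRNPL, and RBM8B 49.6 RPM beside 21.8 RPM for RBM8A, a core protein of the exon junction complex. HNRNPA1L3, listed as a member on chromosome 16, had 3 fragments without glucose, 0 without glutamine and 69.3 RPM in control, and HNRNPA1, a repressor of exon inclusion, had 2 without glucose, 0 without glutamine and 19.0 RPM in control. The pairs were named after their values were seen.

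**Figure D5:**
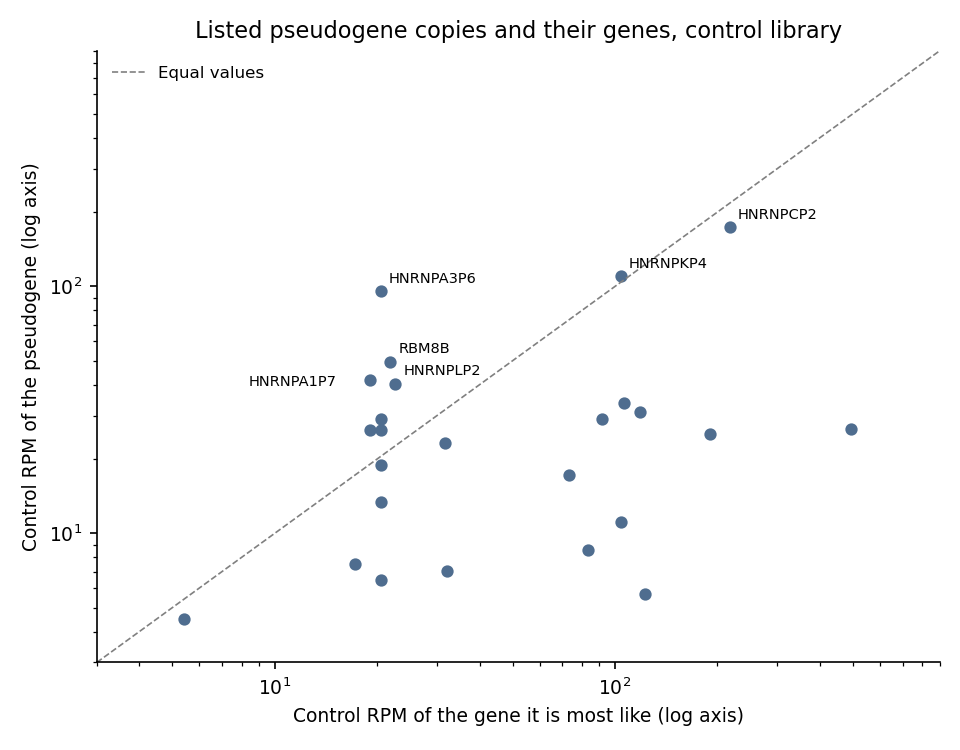
Control RPM of each of the 25 listed pseudogenes (vertical, log axis) against the control RPM of the member it is most like (horizontal, log axis), with a dashed line at equal values. The 8 points above the line include HNRNPA3P6, RBM8B, HNRNPLP2, HNRNPA1P7 and HNRNPKP4, and HNRNPCP2 lies just under it.

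How little separates a gene from its copy is shown by stretches of 60 bases from 2 pairs, read from the GENCODE 29 transcripts, 5′ to 3′ on the sense strand, with the bases that differ within a pair in capitals. Each stretch was picked for having the most differences within the aligned coding sequence, so it differs more than the pair does as a whole. Across the aligned sequence HNRNPC (chr14:21209136-21269494, minus strand, hg38) and HNRNPCP2 (chr2:189923336-189924216, plus strand) differ at 10 of 881 bases. HNRNPA3 (chr2:177212563-177223958, plus strand) and HNRNPA3P6 (chr3:75214631-75215636, plus strand) differ at 4 of 1006. The stretches from HNRNPC and HNRNPA3 are coding sequence.
HNRNPC: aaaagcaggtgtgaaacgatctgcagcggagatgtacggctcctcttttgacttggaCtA
HNRNPCP2: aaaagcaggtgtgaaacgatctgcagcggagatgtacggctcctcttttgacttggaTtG
HNRNPA3: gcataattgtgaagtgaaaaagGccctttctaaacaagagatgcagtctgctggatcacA
HNRNPA3P6: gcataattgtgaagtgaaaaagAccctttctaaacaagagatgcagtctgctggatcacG
Each stretch of 60 bases has 2 differences. In the glucose-deficient library the copies kept 0.925 fragments per 1000 control fragments (0.191 to 2.70), an interval that holds the members' 2.03.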

How the data were processed

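The deposited table and the per-sample files hold RPM values per the file headers, for regions without coordinates, in 2 blocks that each pair the control library with 1 deprived library (14338 and 14333 rows). The aligner was HISAT2 2.0.5 and the build hg38, per the submitters' processing notes. Capture used 50 pmol of DAMER labelled with biotin, 30 min on streptavidin beads and 1 h with lysate at 4 °C, and reads were paired, of 150 nt, per the labels' protocols. Region calling, annotation, strand and the handling of multiply mapped reads are not stated in the sources used here. For the sample grown without glutamine a label points to the other deprived column, so the mapping was taken from that sample's own file, equal to the glutamine column.

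RPM values stepped in units of 1 fragment with an offset of 0.5, so fragments were recovered; 99.97%, 99.98% and 63.4% of the values were whole in the glucose-deficient, glutamine-deficient and control library, and all were whole or at 0.5 within 0.01 fragments. Depth therefore follows from the values. The design had assumed counts with the same lack of replicates. With 1 library per group no test across samples exists. Genes were summed over regions and compared on log2(RPM + 1) where either library had 1 RPM, and called at 2-fold, on the scale of all listed genes. Regions with equal values in both blocks and overlapping or neighbouring genes (within 1000 bases) were taken as 1 region. Exact 95% Poisson or conditional binomial intervals cover counting error only, and reads without molecular identifiers are not independent molecules. A library at 0 was set to a floor of 3 fragments, per library, for bounds. Fragments not naming a gene (691 rows in each block) stayed out of gene comparisons. Of the members, 119 matched GENCODE 29 by identifier and 1 by symbol. Copies were sought with blastn 2.17.0. Calculations used scipy 1.17.1, numpy 2.4.6 and pandas 2.3.3 in Python 3.11.15, with matplotlib 3.10.9 for figures. The recovery and the calls were tested on simulated data for 3600 genes, of which 200 were changed 4-fold.

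The members and lists were chosen with earlier results of these data known. Named genes were the 5 highest in control per prefix, those with 2 or more fragments in a deprived library, the 10 with most regions, the 5 highest per kilobase and the 5 lowest, and for the other lists the 3 highest and those with 2 or more fragments. Genes named for a shared complex, a copy, a readthrough or a single fragment were chosen after their values were seen. A few genes that the rule picks, and some sequences, are not reported here.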

Additional observations from a re-analysis of the deposited data

How the results depend on the processing

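No paired analysis was possible because each group holds 1 library. Of 70 alternative values, 44 stayed near the value given, and no median log2 difference changed sign. Near means within 1.5 times for a count of genes, within the counting interval for fragments kept and summed RPM, and within 0.34 for a median log2 difference in either library. By this rule 91 members lower without glucose, on totals free of ATF4 and its pseudogenes, count as near to 120, though 12 were then higher. In the glucose-deficient library the members' median log2 difference was -7.46 with a pseudocount of 0.1 RPM, -3.09 with 5 RPM, -5.53 for genes at 10 RPM or more, -3.96 with totals free of ATF4 and its pseudogenes, -4.05 with totals also free of mitochondrial and the 10 most abundant other control genes, -4.02 for the highest region of a gene and -5.74 for the HNRNP, SRSF, SRRM, SF3 and PRPF genes alone. In the glutamine-deficient library it was -7.60 with 0.1 RPM, -3.10 with 5 RPM, -5.56 for genes at 10 RPM or more, -4.02 for the highest region and -5.80 for those 5 name groups. In the glucose-deficient library the scalings on other totals moved the median of all genes to -3.63 and -3.72. The HNRNP, SRSF, SRRM, SF3 and PRPF genes number 54, all lower in each deprived library, with a glucose-deficient fragment in 17 and a glutamine-deficient fragment in 0 (0 per 1000 control fragments). With regions listed under no other gene, 0 members had a glutamine-deficient fragment (0 per 1000). Without PRRC2A, or for members at 10 control RPM or more, 1 did. The members' summed deposited RPM was 17.3 without glucose, 13.96 without glutamine and 9458 in the control library. With the offset of each region taken off it was 3.83 and 0.109 in the deprived libraries, and with regions listed under no other gene 15.2, 12.2 and 8272. Dropping both readthrough genes, an alternative chosen after seeing the data, changed no call. Depth limits the deprived libraries: 3 fragments or fewer were recovered for all but 5 members there.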
